A study of Caenorhabditis elegans with 2 samples.

Results

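Peaks of the condensin II subunit KLE-2 that lie in chains were taken from 1 list of 6218 peaks called on the WormBase WS220 assembly of Caenorhabditis elegans. Peaks were ordered by chromosome and start, and neighbours were linked when at most 2000 bases lay between the last base of one and the first base of the next. A chain is a run of linked peaks, and all peaks in chains of 4 or more were kept. The rule found 638 peaks, 10.3% of the list, in 120 chains. The remaining 5580 peaks comprised 3449 unlinked peaks and 2131 peaks in chains of 2 or 3. The members were chosen by the deposited start and end positions of the peaks, so counts, chain lengths and gaps are given as a description, with no test.

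The study profiled whole fem-2(b245) hermaphrodites, carrying the allele on chromosome III, at 20 °C, by chromatin immunoprecipitation and sequencing (ChIP-seq) with a polyclonal rabbit antibody to KLE-2 that had been affinity-purified. It held 1 ChIP library and 1 input library of the same strain, and the peak list belongs to the ChIP library. The labels call the animals young adults with a germline, while the growth protocol speaks of gravid adults. Somatic and germline nuclei were therefore mixed, and ground tissue was fixed with 1% formaldehyde for 10 minutes. Whether the animals made sperm is not given in the sources used here, and no wild-type sample was analysed here. With 1 list there is no replicate error, so no comparison below has a test over samples. Intervals cover counting error only and treat peaks as independent, although chained peaks are neighbours. Read depth is unknown, because the list holds no read counts.

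Condensins are ring-shaped complexes of paired SMC ATPases closed by a kleisin, and they fold and compact chromosomes. In C. elegans, KLE-2 is the kleisin of condensin II, which works with the SMC proteins MIX-1 and SMC-4 and the regulatory subunits HCP-6 and CAPG-2 in mitotic and meiotic chromosome segregation. Related condensins share MIX-1, among them the dosage compensation complex that acts on X in hermaphrodites. A chain of peaks is a stretch in which the peak caller reported enrichment at several closely spaced places. It can be a broad region that was reported in pieces or a row of separate sites, and a peak list does not tell these apart.

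Most chains were short. There were 62 chains of 4 peaks, 40 of 5 or 6, 14 of 7 to 9, and 4 of 10 or more. The median chain spanned 6.41 kb (quartiles 4.71 and 7.93 kb), from 1.84 kb to 35.0 kb. Together the chains spanned 866 kb, or 0.864% of the span of the chromosomes taken to the end of their last peak. Within that length 510.5 kb, or 58.9%, was covered by peaks.

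Long chains were more frequent than the share of close gaps alone gives. Of 6212 gaps between neighbouring peaks on the same chromosome, 1704 (27.4%) were 2000 bases or less. If each gap were close with that share whatever the gap before it, arithmetic gives 67.6 chains of 4 peaks, 1.92 chains of 7 or more and 0.0397 chains of 10 or more. The list held 62, 18 and 4. Close gaps followed each other: 37.5% of the 1704 gaps that came after a close gap were close as well, against 23.6% of the 4502 that came after a longer one. These are descriptions of 1 list, without a test.

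**Figure D1:**
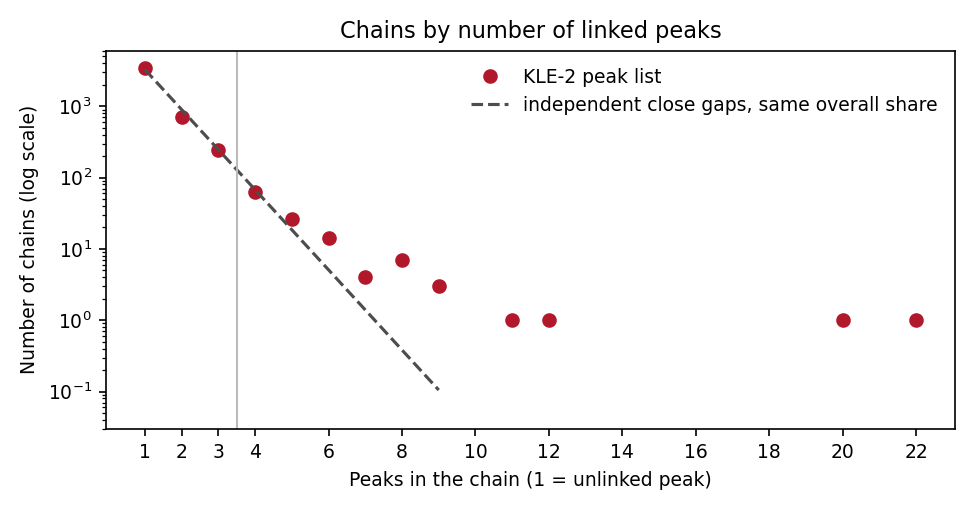
Number of chains (vertical axis, log scale) by number of linked peaks (horizontal axis), with the KLE-2 list as points and the counts that independent close gaps would give as a dashed line, and chains of 4 or more right of the grey line. The 62 chains of 4 lie near the line at 67.6, and the points for 7, 8 and 9 peaks lie above it. The line ends at 9 peaks, where it stands at 0.105, so the 4 chains of 10 or more have no line beneath them.

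Chains were found on every chromosome, and chromosome III had most. It carried 31 chains with 169 peaks, 2.25 chains per Mb (exact Poisson 95% interval 1.53 to 3.195). Chromosomes II, IV and I held 1.51, 1.43 and 1.33 chains per Mb, with 23, 25 and 20 chains, and their intervals overlapped each other and that of III. Chromosome V was the sparsest autosome, with 16 chains and 0.765 per Mb (0.438 to 1.24). X carried 5 chains with 24 peaks, 0.282 per Mb (0.0917 to 0.659), against 115 chains and 1.39 per Mb on the autosomes (1.15 to 1.67). Peaks of any kind were also unevenly spread. Their mean gap was shortest on III (10.2 kb) and I (10.8 kb), longest among autosomes on V (19.5 kb), and 40.1 kb on X.

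The share of a chromosome's peaks that lay in chains varied less than the density of chains. It was 13.3% on III (exact Clopper-Pearson 95% interval 11.5 to 15.3%), 12.6% on II (10.6 to 14.7%), 11.3% on IV (9.49 to 13.3%), 8.51% on V (6.88 to 10.4%), 7.58% on I (6.21 to 9.14%) and 5.52% on X (3.57 to 8.10%). Members come in blocks of 4 to 22 peaks, so these intervals are too narrow to rank the chromosomes, and no difference between them was tested. Without the 22-peak chain, III had 11.8%, and without its 20-peak chain, V had 6.71%.

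Chromosome I held no chain of more than 7 peaks, although its median chain had 5 peaks and spanned 6.75 kb, against 4 peaks and 6.41 kb over all chains. Of its 1319 gaps, 382 (29.0%) were close, near the 28.5% of chromosome II and the 28.1% of IV. Independent close gaps at that share would put 7.61% of its peaks in chains of 4 or more, and 7.58% were there. On the other chromosomes the observed share was above the share computed in this way. The pairs were 13.3% and 9.78% on III, 12.6% and 7.25% on II, 11.3% and 6.997% on IV, 8.51% and 4.90% on V, and 5.52% and 0.699% on X. On I a close gap followed a close gap in 33.0% of cases and a longer gap in 27.2%, whereas on II these shares were 40.8% and 23.6%. Random placement at the mean gap of each chromosome, read from an exponential distribution of gaps, would put from 0.0445% of peaks in chains on X to 1.96% on III. On each chromosome the observed share was above its own value of this kind.

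**Figure D2:**
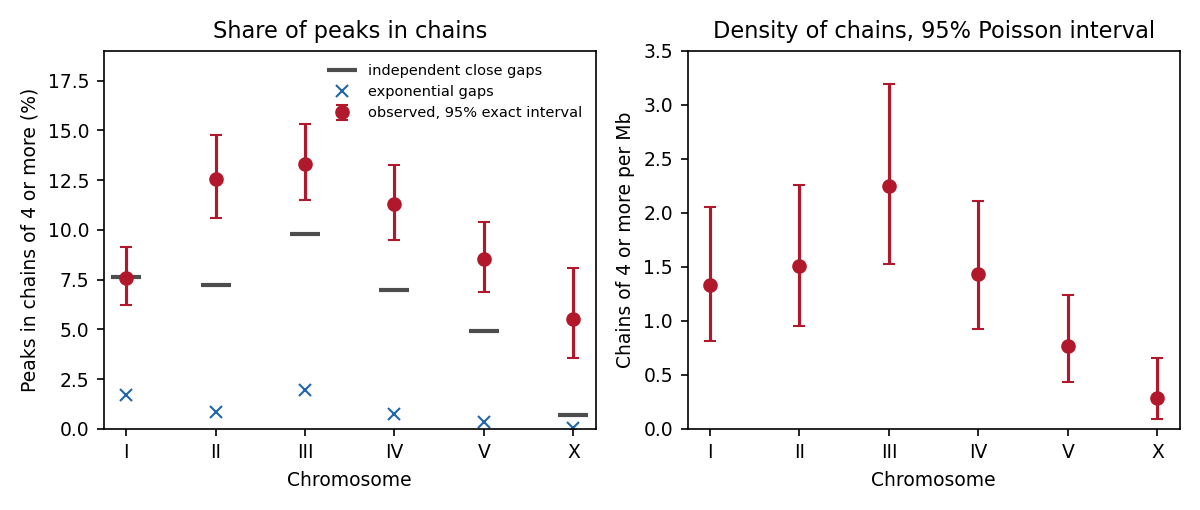
Left, the share of each chromosome's peaks in chains of 4 or more (points, 95% exact interval), with the shares that independent close gaps (bars) and exponential gaps (crosses) would give. Right, chains per Mb with 95% Poisson intervals, highest on III at 2.25 and lowest on X at 0.282.

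Of the 120 chains, 95 lay in chromosome arms (33.3% of the span, taken from either end) and 25 in the centers. Arms held 76.5% of chain members (73.0 to 79.7%) and 68.6% of all other peaks (67.3 to 69.8%). On II, 88.5% of members and 68.9% of other peaks lay in the arms, on V 84.1% and 67.4%, and on III 74.0% and 67.5%. On X, 24 of 24 members lay in the arms, against 319 of 411 other peaks. On I and IV the shares of members were not above those of other peaks, with 65.0% and 68.3% on I and 66.9% and 67.2% on IV. The share differed by chain size, and arms held 102 of the 111 peaks in chains of 7 to 9, but 20 of the 65 peaks in chains of 10 or more, since 3 of those 4 chains were central. When the link distance was lowered to 1000 bases, the arm excess of members over other peaks was 1.74 percentage points, against 7.92 at 2000 bases.

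The longest chain lay on chromosome III (7405303 to 7440351), where 22 peaks covered 85.5% of 35.0 kb. Most of them scored below the median of the list. Their scores ran from 58.17 to 514.03 with a median of 127.16, against a median of 229.5 over all peaks, and 6 of the 22 exceeded that value. Scores are those the authors deposited for each peak. They begin at 50.08, and 171 peaks are tied at 3100, while the highest score is 3219.64. The peaks were broad for their score: the median width was 877 bases, and the widest peak, 5566 bases (7415538 to 7421103), scored 291.02. The gaps were short, with a median of 135 bases and a longest of 927.

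The next chain, on chromosome V (6070965 to 6095832), held 20 peaks over 24.9 kb and was built differently. Its first peak scored 3100 (6070965 to 6073049), and toward its other end came a peak at 3100 (6088646 to 6089462), one at 2963.67 (6091391 to 6092788) and one at 745.28 (6095220 to 6095832). Between its first peak and the next strong one lay 15 peaks with scores of at most 238.11, and a further weak peak of 127.77 lay between the last strong ones. Its median score was 118.98 and its gaps reached 1928 bases. Weak peaks thus lay in a row between 4 stronger ones. They were 282 to 823 bases wide, and the median width of the whole chain was 512.5 bases.

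Chromosome IV carried a pair of long chains next to each other. A chain of 12 peaks (6688916 to 6703192) was followed after 7.56 kb by one of 9 peaks (6710756 to 6731244), and a chain of 4 (6668282 to 6675678) lay 13.2 kb before them. The chain of 12 was the weakest of the 4 chains with the most peaks, with a median score of 94.255 and a highest score of 288.22. The chain of 9 had wider peaks, up to 3315 bases (6710756 to 6714070, score 480.45), and a median score of 167.93.

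Chromosome II held the strongest of the named chains by median score. At 13817565 to 13829959, 9 peaks covered 78.0% of 12.4 kb, and 7 of them scored between 1468.15 and 3219.64. The highest of these (13820918 to 13822336) had the highest score of the whole list. The 6 peaks that opened this chain were of nearly equal width, from 1242 to 1419 bases, and began 0, 1.75, 3.35, 5.22, 7.19 and 8.87 kb from its first base. They were followed by narrow peaks of 291 and 345 bases with scores of 52.13 and 72.95, and by a last peak of 1833.36. The median score of this chain was 1833.36. Next among the named chains was the chain of 11 peaks on II (9808063 to 9824515), with 297.95, and the others lay between 94.255 and 252.05.

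The remaining named chains were of intermediate strength. On II, 9 peaks at 3159543 to 3168553 had a median score of 206.3 and gaps of at most 463 bases. Another chain on II, of 8 peaks (3510950 to 3524059), was open, with 34.4% of its length covered and a median gap of 1447 bases. On III, 8 peaks at 13584160 to 13598957 covered 93.7% of 14.8 kb and included a peak of 5729 bases (13586411 to 13592139, score 981.21), while 8 peaks at 322309 to 332846 had a highest score of 780.38. The longest chain of chromosome I (210990 to 220354) held 7 peaks over 9.36 kb, of which 1 was strong (215335 to 216468, score 1996.75) and the others scored from 70.6 to 462.35.

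**Figure D3:**
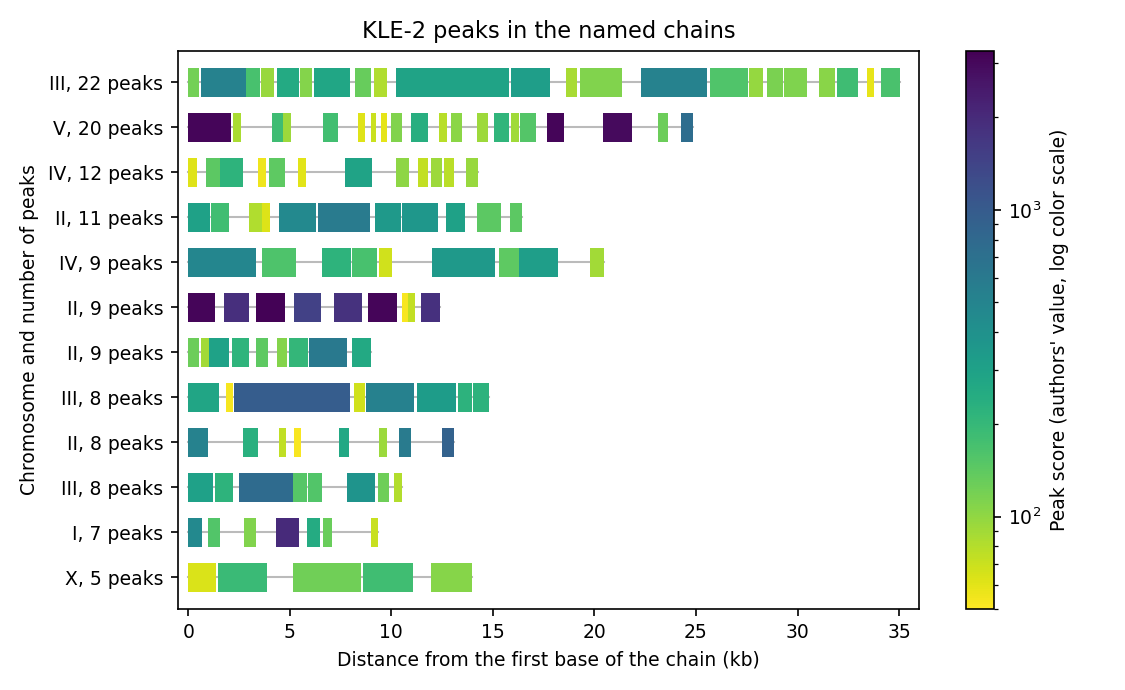
Peaks (boxes, to scale) of the 12 named chains, by distance from the first base of the chain in kb, colored by the authors' score on a log color scale. The 22-peak chain on III holds no score above 514.03, the 20-peak chain on V has strong peaks toward its ends, and the upper of the 9-peak chains on II holds 7 of 9 peaks above 1468.

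The 5 chains on X differed among themselves, and 3 of them held wide peaks, with median widths of 2411, 1442 and 1093 bases. In the other two the median widths were 541 and 544 bases. Pooled, the X members covered 86.4% of the 41.7 kb they spanned, against 57.5% on the autosomes. Their median width was 1244.5 bases, against 473 bases for other X peaks, and their median gap was 99 bases. The 3 chains of wide peaks hold 15 of these 24 members. In the longest (4042332 to 4056295), 5 peaks of 1346 to 3379 bases scored 63, 193.31, 124.85, 179.86 and 107.15, all below the median of the list. In the chain at 16929362 to 16939960, a 4726-base peak scored 3100 and a 3140-base peak scored 1089.21, with gaps of 9 to 92 bases. The chain at 5045388 to 5053029 had scores from 92.63 to 486.68, and that at 1883248 to 1888829 from 60.87 to 247. The chain of 4 nearest the chromosome's start (166112 to 170069) paired weak peaks of 164.02 and 189.59 with strong ones of 1842.44 and 1958.18. When peaks within 500 bases were merged before linking, 0 chains of 4 or more were left on X and 41 on the autosomes.

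Gaps inside the chains were short. The median of the 518 gaps was 476 bases (quartiles 163 and 1115.5), against 719.5 bases (300.5 and 1238.25) for the 1186 gaps inside chains of 2 or 3. Gaps of 200 bases or less made up 28.0% (24.2 to 32.1%) inside chains of 4 or more and 18.7% (16.5 to 21.1%) inside shorter chains, and gaps of 500 bases or less made up 51.0% and 37.8%. In 13 cases at most 10 bases separated the peaks, and the smallest gap was 1 base. The median gap was longest on IV (739.5 bases) and I (670.0 bases), followed by V (512.5), II (463) and III (377.5), and shortest on X (99).

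**Figure D4:**
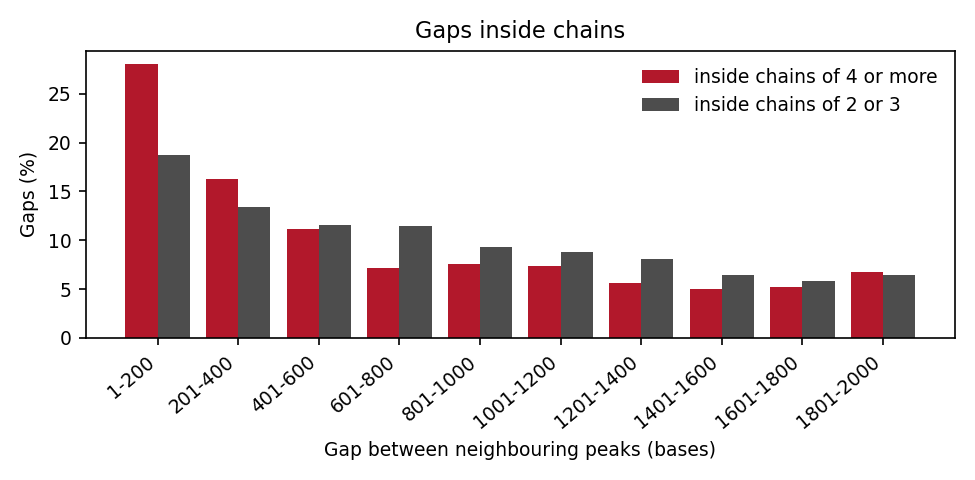
Share of gaps (vertical axis, percent) by gap length in bins of 200 bases (horizontal axis) inside chains of 4 or more (red, 518 gaps) and inside chains of 2 or 3 (grey, 1186 gaps). Gaps of 1 to 200 bases made up 28.0% in the longer chains and 18.7% in the shorter ones.

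Few chains remained whole at shorter distances. At 500 bases, 12 of the 120 were still a single run and 27 still held a run of 4 or more peaks; at 1000 bases these numbers were 35 and 52. Coverage ranged from 25.4% in a chain of 5 on II (13944162 to 13951578) to 98.5% in a chain of 4 on IV (8572564 to 8582029). It was above 80% in 16 chains and under 50% in 50. The near-continuous chain on IV consisted of peaks of 1594, 779, 3100 and 3851 bases with gaps of 34, 72 and 36 bases and scores of 182.5 to 499.59. The list thus holds both nearly continuous and open chains.

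Chain members scored lower and were wider than the other peaks at the median. Their median score was 190.1 (quartiles 103.8 and 486.8), against 234.0 (104.5 and 586.1) for all other peaks, and 44.4% (40.5 to 48.3%) exceeded the median score of the list, against 50.6% (49.3 to 51.9%). Their median width was 605.5 bases (457.5 and 872), against 534 (425 and 693). Since the gap is measured between peak edges, a wide peak is more readily linked, so width is not independent of the rule. With peaks linked by their midpoints instead, the difference in median width was 21.5 bases (95% interval of the members' median, -8 to 67), against 71.5 bases with gaps between edges. With each chain counted once by its median, the difference in median score was -39.2 (-52.3 to 34.4), against -43.9 with each peak counted once, and this interval holds 0. The median score was lower in members on all 5 autosomes. It was 160.1 in members against 232.0 in other peaks of chromosome I, 189.9 against 255.3 for II, 202.9 against 251.0 for III, 183.2 against 226.7 for IV, and 213.5 against 248.2 for V. On X it was higher, at 210.0 against 164.9, with 24 members. In the 42 windows of 1 Mb with at least 5 peaks of each kind, members had the lower median in 28 and the higher in 14.

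Scores differed by chain size. The median score was 232.6 in unlinked peaks, 228.5 in chains of 2, 255.2 in chains of 3, 239.8 in chains of 4, 183.7 in chains of 5 or 6, 193.0 in chains of 7 to 9 and 132.4 in the 65 peaks of chains of 10 or more. With chains of 3 counted as members, the difference in medians was only -3.83, against -43.9 for chains of 4 or more. Without the chains of 20 or more peaks it was -32.2. After merging peaks within 500 bases it was -1.735, with medians of 250.0 and 251.7. There each merged region carried the highest score of its peaks, so this value is not a difference of single peak scores. Peaks in chains of 4 and of 3, just inside and just outside the rule, were alike in width at the median too, with 583 and 563 bases.

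At matched width, wide chain members scored far below other wide peaks. Among peaks of up to 427 bases, the median score was 73.4 in 126 members and 74.8 in 1431 others. It was 141.7 against 172.8 between 427 and 538 bases, 261.7 against 432.5 up to 705 bases, and 469.8 against 721.9 up to 1026 bases. Among the widest 10% of peaks, 115 members had a median of 511.7 (quartiles 251.0 and 1362.56) and 507 others a median of 1700.21 (746.3 and 3100). The members' median was lower on 5 of 5 chromosomes with at least 10 members in each of the 3 wider classes, X having at least 10 members only in the widest class and I only 5 there. Up to 427 bases the members' median was lower on 2 of 5, and between 427 and 538 bases on 4 of 5. Score and width were accordingly less tightly related in members (Spearman's rho 0.722 over 638 peaks) than in other peaks (0.855 over 5580), as a description across neighbouring peaks of 1 list. The comparison at matched width was added after the values had been seen. It was not repeated with each chain counted once or without the long chains, so neighbouring peaks of 1 chain count separately.

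**Figure D5:**
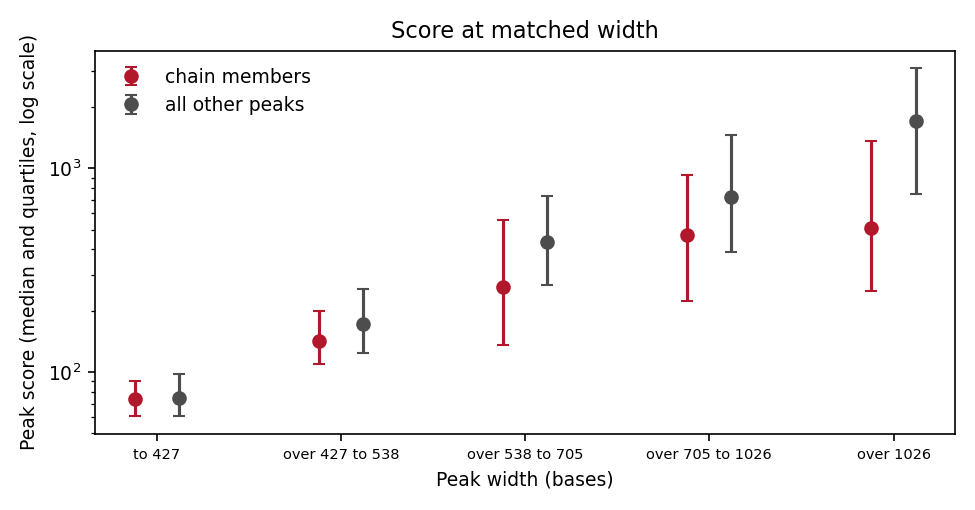
Median peak score with quartiles (vertical axis, log scale) in 5 classes of peak width in bases (horizontal axis), for chain members (red) and all other peaks (grey). The medians nearly coincide in the narrowest class, at 73.4 and 74.8, and separate to 511.7 and 1700.21 in the widest.

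Broad peaks of 1500 bases or more were more frequent among members, with 55 of 638, or 8.62% (6.56 to 11.1%), against 247 of 5580, or 4.43% (3.90 to 5.00%). A wide peak is more readily linked by its edges, so this share is not independent of the rule. It was not repeated with midpoints. Peaks scoring 3100 or more are called ceiling peaks here, although some scores lie above 3100, up to 3219.64. Ceiling peaks were not more frequent among members, with 13 of 638, or 2.04% (1.09 to 3.46%), against 168 of 5580, or 3.01% (2.58 to 3.49%), and these intervals overlap. The 13 ceiling peaks lay in 8 chains, of which 3 were on II, 3 on V, 1 on I and 1 on X. On III none of the 169 members reached the ceiling, against 19 of 1100 other peaks, and on IV none of 127 did, against 47 of 999. A count of 0 has an upper exact limit of 2.16% on III and 2.86% on IV. The share of other peaks at the ceiling was 1.73% on III and 4.71% on IV. These members lay in 31 and 25 chains and are not independent, so the limits are too low, and no difference was tested. On II and V the share was higher in members than in other peaks (4.6% and 2.7%, 5.7% and 3.3%). On I and X it was lower (1.0% and 2.1%, 4.2% and 5.1%).

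Most chains held peaks on both sides of the median score of the list. This was so in 102 of the 120, while in 11 every peak lay above that median and in 7 none did. Since 44.4% of all members exceeded that median, peaks with unrelated scores would make most chains mixed as well. No reference count was computed, so the 102 is not read as a property of the chains. The lowest score in a chain had a median of 76.6 over chains and the highest a median of 852, and the highest exceeded 1000 in 46 chains. The strongest uniformly high chain was on V (17115314 to 17132239), with scores of 927.15, 1343.39, 3100 and 3100 and peaks of up to 6938 bases. On IV a chain of 5 (4720313 to 4728400) ranged from 427.08 to 2350.31. Neighbouring peaks in a chain were weakly alike in score (Spearman's rho 0.245 over 518 pairs, against 0.111 over 1186 pairs in shorter chains) and somewhat more alike in width (0.358 against 0.221). Pairs share peaks and position, and these are descriptions.

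Peaks at the ends of chains scored higher than inner peaks at the median. The 240 first and last peaks had a median score of 234.1 (quartiles 110.6 and 651.3), the 398 inner peaks 176.6 (101.9 and 363.0). The strongest peak of the chain was at an end in 60 of 120 chains. Ends made up 37.6% of the members pooled over chains. Longer chains lower that pooled share, so it is not a matching reference for a count of chains. In 3 chains the highest score was shared, and the peak that came earlier was taken. The median of the end peaks exceeded that of the inner peaks in 74 chains. In chains of 4, where ends are as many as inner peaks, the strongest peak was at an end in 29 of 62. In chains of 5 or more it was at an end in 31 of 58 (53.5%). Ends made up 29.7% of their pooled peaks, which is again lower than a reference counted per chain. Because longer chains also scored lower, chain length and place in the chain are not separated in the comparison of medians.

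Chains were mostly far apart. The median distance between neighbouring chains was 349 kb, and 11 of 114 distances were 50 kb or less. The closest pair lay on III, where a chain of 8 (1920957 to 1929854) was followed after 6.66 kb by a chain of 4 (1936519 to 1942453). On X the chains lay at least 989 kb apart, with the widest stretch between chains reaching 11876 kb. Members occupied 114 of the 964 windows of 100 kb that held a peak, and 10 windows held 10 or more. In the window of III from 7.4 to 7.5 Mb 22 of 28 peaks were members, and in that of V from 6.0 to 6.1 Mb 20 of 25 were.

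The counts of gaps were similar on both sides of the linking distance. There were 60 gaps of 1901 to 2000 bases and 57 of 2001 to 2100. The widest gap inside a chain of 4 or more was 1994 bases, on II before a peak at 13951230 to 13951578 with a score of 515.36. Just outside, a gap of 2007 bases on III kept a chain of 3 from a peak at 354494 to 355369 with a score of 1988.12.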

How the data were processed

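Per the submitters' processing notes, the aligner was BWA and the genome ce10. Per the file headers and columns, MACS made the peak calls on WormBase WS220. The score was deposited by the authors as 1 value per peak; the sources used here do not give its scale, the MACS version and threshold, the control or any pooling. The lowest score was 50.08 and 171 peaks had exactly 3100. Other deposited values used were the first and last base of each peak.

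Chains were linked at 2000 bases with at least 4 peaks; the linking was tested on simulated chains of known size. Named are the 10 chains with the most peaks (ties by span) and the chain with the most peaks on each chromosome. The members and lists were chosen with earlier results of these data known. Intervals are exact at 95%. Chromosome spans end at the last peak. Shares for independent close gaps follow from a geometric run length. No gene or sequence is given, since no genome of WS220 was used here. Alternatives changed the link distance, chain size, peak set, merging, distance measure and arm definition. The scripts ran under Python 3.11.15 with scipy 1.17.1 (intervals), pandas 2.3.3 (linking), numpy 2.4.6 and, for figures, matplotlib 3.10.9.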

Additional observations from a re-analysis of the deposited data

How the results depend on the processing

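No paired analysis was possible because all values come from 1 ChIP peak list, which also leaves no replicate to omit. Leaving out the chains of 20 or more peaks and counting each chain once were chosen after seeing the data. At link distances of 1000, 1500, 3000 and 5000 bases, 4.66, 6.96, 16.15 and 27.2% of peaks were members, and at 1000, 3000 and 5000 bases there were 53, 189 and 313 chains. Chains of at least 3 or 5 peaks numbered 361 and 58 and held 21.9 and 6.27% of peaks. Peaks above the median score gave 23 chains with 3.19% of those peaks, merging within 500 bases gave 41 chains with 3.305% of the merged regions, and midpoints within 2500 bases held 8.59%. These shifts follow from the construction of the alternatives. The X to autosome ratio of chain density was 0.203 (5 chains on X). At link distances of 1000, 1500, 3000 and 5000 bases it was 0.380, 0.299, 0.127 and 0.0756. It was 0.106 and 0.345 with at least 3 and 5 peaks. Among peaks above the median score it was 0.444 (2 chains on X), and after merging it was 0.

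The difference in median score, members minus others, was negative in 12 of 12 alternatives, but the interval from the members' median held 0 in 4 of them (each chain counted once, at least 3 peaks, peaks above the median score, and merging). It was -64.5 at 1000 bases, -3.83 with at least 3 peaks, -61.2 with at least 5 and -65.4 with midpoints. After merging it was -1.735, with each merged region given the highest score of its peaks. The difference in median width stayed positive: 110.0 bases at 1000 bases, 33 at 5000, 154 among peaks above the median score, 131.5 after merging and 21.5 with midpoints, where the interval of -8 to 67 held 0. The share in arms, members minus others, was 1.74 percentage points at 1000 bases, 13.1 at 5000 and 12.4 among peaks above the median score. After merging it was 6.09. The interval from the members' share held 0 at 1000 bases (-3.85 to 6.89) and after merging (-0.869 to 12.2). The share on X, members minus others, was -3.60 points. It was -0.466, -1.56, -5.14 and -7.09 at 1000, 1500, 3000 and 5000 bases. It was -5.85 and -1.99 with at least 3 and 5 peaks, and -7.59 after merging. The interval from the members' share held 0 at 1000 and 1500 bases and with at least 5 peaks. Among peaks above the median score, with 2 chains on X, the share on X changed sign to 2.66 points (-1.87 to 9.88). The ceiling share went from -0.973 (-1.92 to 0.448) to 1.29 points (-2.895 to 8.24). Each of these intervals, taken from the members' share, holds 0, and the cause was not tested. Unknown depth means that weak peaks under the authors' threshold, which could join or lengthen chains, are not seen.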
